A study of Mus musculus with 5 samples.

Results

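The comparison described here sets mouse sarcoma cells kept in a high dose of doxycycline for 48 h against cells kept in it for 3 h. Doxycycline, an antibiotic used as a chemical switch, turns on a gene for EWS/ATF1 in these cells. The arrays were chosen by their titles, and they are 2 of the 5 arrays of the series, 1 for each time. Both hold tumour cells derived from soft tissue sarcomas in mice with the inducible fusion allele, whose strain background is a mix of ICR, 129 and C57/BL6. The other 3 arrays hold 3 h low doxycycline, 48 h control and 3 h control cells of the same origin and background. The doses, whether the controls received any doxycycline, the promoter that drives the fusion and the tumour line behind each array are not stated in the sources used here. A difference between arrays therefore cannot be told apart from a difference between lines. Total RNA was labelled with Cy3 and hybridised to 1-colour Agilent arrays. With 1 array a group, no difference below has a replicate check, and none carries a p-value.

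EWS/ATF1 is the fusion protein of clear cell sarcoma. It joins the activating part of EWS to the DNA-binding part of ATF1, a relative of CREB that binds cAMP response elements in promoters. Immediate early genes such as Fos and Egr1 are switched on within minutes of a stimulus, without new protein synthesis, and many encode transcription factors. Genes of DNA replication and mitosis are switched on later, when cells pass through the division cycle, and Mki67 is the marker most used for them.

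Levels are log2 of the processed signal over the 75th percentile of the same array, so a level of 0 is that percentile and a difference of 1 is 2-fold. They are compared between arrays for a given gene and not between genes. Each array held 59305 spots outside the controls. Of 55681 probes, 55.5% were well above background at 48 h and 59.7% at 3 h of the high dose. The shares were 60.0% at the low dose, 59.9% in the 48 h control and 55.5% in the 3 h control. Counts of genes above background on an array, given below, are to be read against these shares of probes. The 75th percentile of signal was 420 for 48 h high doxycycline, 556 for 3 h high doxycycline and 585 to 725 on the other arrays. The 5 arrays share 1 slide and 1 scan. Of 20018 named genes, 13772 were above background on both high-dose arrays, and their median difference was 0.08. Among those 13772, a difference of 2-fold or more in either direction was called. Median technical error was small beside that threshold. The median SD between repeated spots of a probe was 0.0894 for a log2 difference. The scanner's error model gave a median of 0.204 for genes with 1 spot, and up to 0.544 among measured genes. Neither covers the variation between cultures. For 1625 genes the difference lay within one scanner error of the threshold.

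At 48 h of the high dose, 1263 genes were at least 2-fold higher than at 3 h (9.17% of those measured) and 1154 were at least 2-fold lower (8.38%), or 17.6% in all. Which direction held more genes depended on the scaling, since 1154 were higher and 1253 lower after quantile normalisation, and 802 and 924 after normexp with quantile normalisation. At 4-fold, 370 were higher (2.69%) and 305 lower (2.21%). At 8-fold, 170 were higher (1.23%) and 88 lower (0.639%), and at 16-fold 82 were higher (0.595%) and 26 lower (0.189%). A further 291 genes were higher and 359 lower as bounds, because they were above background on 1 of the 2 arrays only. Between the 48 h and 3 h control arrays, 351 of 14017 genes were higher (2.5%) and 191 lower (1.36%), or 3.87% in all. That pair shares no array with the high-dose pair. With the control difference subtracted from the high-dose difference, 1303 of 13480 genes above background on the 4 arrays were at least 2-fold higher (9.67%) and 1466 at least 2-fold lower (10.9%), or 20.5% in all. Of the called higher genes that were also above background in both controls, 89.7% differed by under 2-fold between the controls, and of those called lower 91.2% did. For 81.9% of the 1263 higher genes and 85.1% of the 1154 lower genes, all 3 other arrays lay nearer to the 3 h than to the 48 h high-dose level. The called genes thus mostly set the 48 h high-dose array apart from the other 4. That array was at least 4-fold below each of the other 4 for 383 genes and at least 4-fold above each of them for 473. For the 3 h high-dose array these numbers were 0 and 55. They were 1 and 12 for the low dose, 4 and 37 for the 48 h control and 4 and 45 for the 3 h control. The genes counted as below had to be above background on the other 4 arrays, and those counted as above did not. Of the 473, 170 were below background on all other arrays, and of the 55, 47 were.

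**Figure D1:**
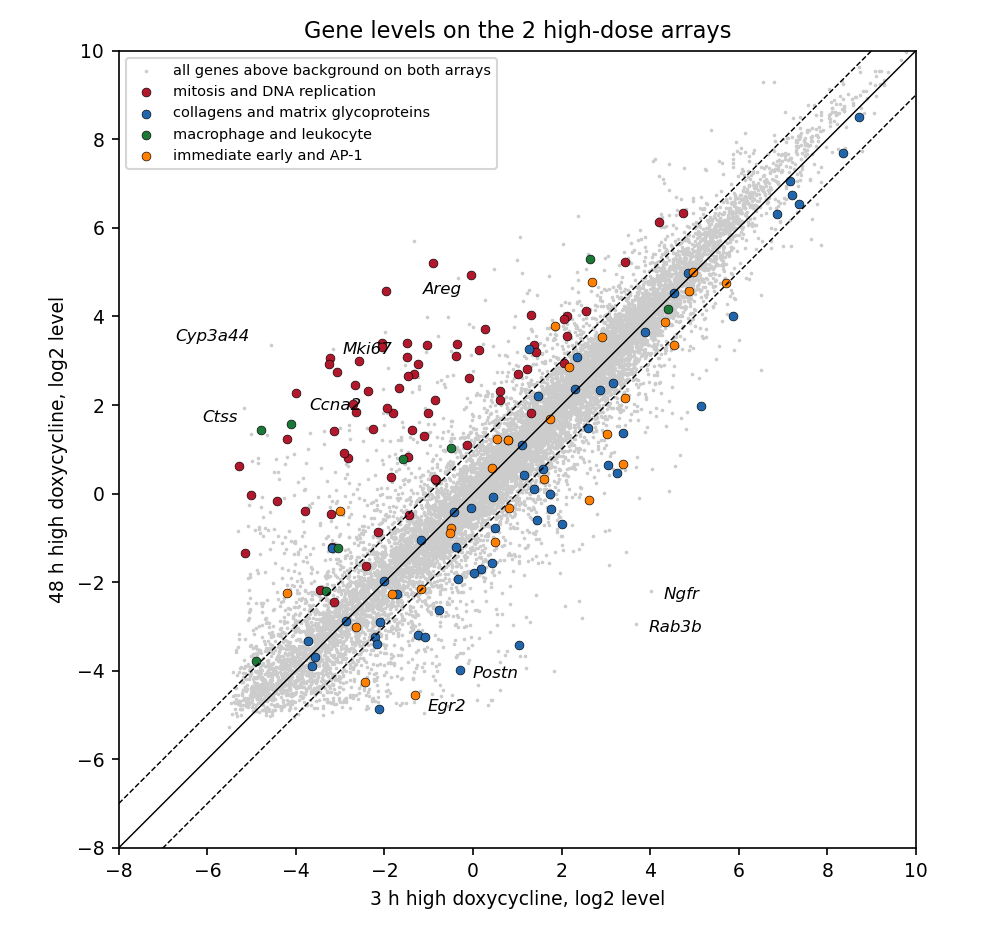
Levels of the 13772 genes above background on both high-dose arrays, with 48 h high doxycycline on the vertical axis and 3 h high doxycycline on the horizontal axis, both log2. The solid line marks equal levels and the dashed lines 2-fold. Most genes of mitosis and replication lie above the dashed band and most called matrix genes below it, while immediate early genes fall on both sides.

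The 3 marker genes of the comparison went different ways. Fos, which pairs with Jun in the AP-1 factor, had a level of 2.86 at 48 h and 2.18 at 3 h of the high dose, against -0.49 at 3 h of the low dose, -2.22 in the 48 h control and -2.22 in the 3 h control. Its 10 spots had an SD of 0.0512 on the 48 h and 0.0424 on the 3 h high-dose array, so the difference of 0.68 exceeded the spread of spots but not 2-fold. Egr1, an early zinc finger transcription factor, was at 2.15 at 48 h and 3.44 at 3 h of the high dose, 1.92 at the low dose, 0.21 in the 48 h control and 0.02 in the 3 h control. It was 2.44-fold lower at 48 h (log2 difference -1.29), and still above every control. Mki67, a protein of the chromosome surface in dividing cells, was at 3.06 at 48 h and -3.23 at 3 h of the high dose, and at -2.89, -3.79 and -2.94 in the low dose, the 48 h control and the 3 h control. It was 78.2-fold higher at 48 h, a log2 difference of 6.29, and the other Mki67 probe gave 6.83. The 2 high-dose arrays thus share a high Fos level and differ most in the division marker.

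The genes joined in the fusion differed little. Ewsr1 was at 3.05 at 48 h and 2.80 at 3 h of the high dose, a difference of 0.25, and Atf1 at 1.32 and 1.34, a difference of -0.02 with 0.46 on its other probe. Where these probes lie relative to the fusion point was not analysed here, so they do not check the induction of the fusion. Among the 4 CREB and EWS relatives listed with them, 1 was called. Crem, a CREB relative that also yields a short cAMP-induced repressor, was at 4.65 at 48 h and 2.23 at 3 h, with 1.75 at the low dose, 2.15 in the 48 h control and 1.79 in the 3 h control. That is 5.36-fold higher at 48 h, and both Crem probes were called.

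Immediate early and AP-1 genes split into members high at both times, members higher at 48 h, and members beside the control level at 48 h. Of 29 measured, 4 were at least 2-fold higher at 48 h (against 9.17% of all genes) and 10 at least 2-fold lower (against 8.38%), with a list median of -0.37. The control list median was -0.02. Every list count below is to be read against those shares of all genes, 9.17% higher and 8.38% lower.

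The higher members were Nr4a3, Fosl1, Csrnp1 and Ier3, a stress-induced survival gene with a difference of 2.08. Nr4a3, an orphan nuclear receptor and a CREB target, had a level of -0.39 at 48 h and -3.0 at 3 h of the high dose, -5.42 at the low dose, and was below background in both controls at -7.05 and -7.20. The difference of 2.60 came from 10 spots on each high-dose array. Fosl1, another Fos family subunit of AP-1, was at -2.25 at 48 h and -4.20 at 3 h, and at -3.41 at the low dose, with both controls below background. Both genes were therefore already above the controls at 3 h and further above them at 48 h. Csrnp1, a nuclear protein first described as induced by AXIN1, was at 3.78 at 48 h, 1.85 at 3 h and 1.17 to 1.25 elsewhere.

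The lower members included Egr2, Npas4, Srf, Jun and Klf2. Egr2, a zinc finger factor also needed for myelination, was at -4.54 at 48 h and -1.32 at 3 h of the high dose, -1.57 at the low dose, -4.49 in the 48 h control and below background in the 3 h control. Npas4, an activity-induced factor of neurons, was at -0.14 at 48 h and 2.62 at 3 h, 2.23 at the low dose, -0.21 in the 48 h control and 0.10 in the 3 h control. Srf, the serum response factor, was at 0.34 at 48 h and 1.60 at 3 h, 1.40 at the low dose, and 0.44 and 0.57 in the 48 h and 3 h controls. For these 3 genes the 48 h high-dose level lay beside the 48 h control level, while both doses at 3 h lay above the controls. Jun, the AP-1 partner of Fos, followed another order, with 0.66 at 48 h of the high dose, 3.38 at 3 h, 4.05 at the low dose, 3.07 in the 48 h control and 3.53 in the 3 h control. Its 48 h level was thus 6.59-fold below 3 h and below every other array. Klf2, a Krüppel-like factor, was likewise lowest at 48 h of the high dose, at -4.26 against -2.45 at 3 h. The Jun relatives Junb and Jund differed by -0.98 and -0.96, just short of 2-fold.

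Genes of the MAP kinase pathway that ERK switches on, many of them feedback inhibitors, were called in both directions. Of 22 measured, 7 were higher (against 9.17% of all genes) and 3 lower (against 8.38%), with a median of 0.34, while 1 was higher and 1 lower between the controls. Dusp2, a phosphatase of MAP kinases, was at 4.30 at 48 h and 2.16 at 3 h of the high dose, 0.27 at the low dose, -0.09 in the 48 h control and -0.33 in the 3 h control. Dusp4, Dusp6 and Dusp14, of the same enzyme family, were higher by 1.69, 1.06 and 1.31, whereas Dusp1 was at 3.11 at both times. Etv4, an ETS factor downstream of ERK, was at 2.88 at 48 h and 1.01 at 3 h, against 0.75 at the low dose, -0.54 in the 48 h control and -0.09 in the 3 h control. Its relative Etv1 was at -2.96 at 48 h and -0.06 at 3 h, and so 7.50-fold lower, while the 48 h control was above the 3 h control by 1.03. Plaur, the urokinase receptor, was higher by 1.87, and Phlda1 and Errfi1, a feedback inhibitor of the EGF receptor, were lower by values of -2.65 and -1.88.

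In the EGF family a ligand and its receptor moved apart, and of 10 measured members 1 was higher and 2 lower, with a median of -0.05. Areg, which encodes the ligand amphiregulin, was at 4.37 at 48 h and 0.27 at 3 h of the high dose, -1.57 at the low dose, -3.07 in the 48 h control and -2.31 in the 3 h control. It was 17.1-fold higher at 48 h than at 3 h. Egfr, the receptor that amphiregulin binds, was at -1.27 at 48 h and 2.03 at 3 h, against 1.44 at the low dose, 2.70 in the 48 h control and 2.04 in the 3 h control. Egfr was 9.87-fold lower at 48 h, and its 3 measured probes gave differences between -3.30 and -1.79. Epgn, which encodes the ligand epigen, was the other lower member, at -3.94 at 48 h and -2.93 at 3 h, a difference of -1.01. Ereg and Hbegf, which encode other ligands of the family, differed by 0.21 and 0.66.

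The list of CREB and cAMP targets had 22 measured genes, with 5 higher (against 9.17% of all genes) and 2 lower (against 8.38%, a like share) at 48 h and a median of -0.04. Beside Crem and Nr4a3 the higher genes were Vgf and Penk, which encode precursors of secreted neuropeptides, and Gem, a small GTPase, at differences of 1.81, 1.46 and 1.10. Bdnf, the neurotrophin, was at -2.29 at 48 h and 1.41 at 3 h, 1.21 at the low dose, and 0.65 and 0.68 in the 48 h and 3 h controls. It was 13.0-fold lower at 48 h. Rgs2, which dampens G protein signalling, was lower by a value of -1.60. Nr4a1 and Nr4a2, the relatives of Nr4a3, differed by -0.31 and 0.62. The list was therefore mixed. Nr4a3, Crem and Vgf stood above their levels on the other 4 arrays, with Vgf at 4.26 against 1.02 to 2.95. For all 7 called genes the 3 other arrays lay nearer to the 3 h than to the 48 h high-dose level.

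Because ATF1 binds the cAMP response element, the letters of its half-site are shown in the promoters of 4 early genes that went different ways. Areg and Nr4a3 were higher at 48 h, Fos was high at both times and Npas4 was lower at 48 h. The windows are the 250 bases before the RefSeq gene start, in assembly GRCm38.p6 and 5′ to 3′ on the gene's strand. Areg lies at chr5:91139349-91139598 on the plus strand, Nr4a3 at chr4:48045055-48045304 on the plus strand, Fos at chr12:85473640-85473889 on the plus strand and Npas4 at chr19:4989972-4990221 on the minus strand. Capitals mark TGACG or its reverse complement.
Areg: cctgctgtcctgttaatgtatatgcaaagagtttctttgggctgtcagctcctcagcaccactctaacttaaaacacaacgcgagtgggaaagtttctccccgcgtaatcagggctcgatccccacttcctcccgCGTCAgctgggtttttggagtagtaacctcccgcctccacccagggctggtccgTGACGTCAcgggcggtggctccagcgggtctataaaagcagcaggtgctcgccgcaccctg
Nr4a3: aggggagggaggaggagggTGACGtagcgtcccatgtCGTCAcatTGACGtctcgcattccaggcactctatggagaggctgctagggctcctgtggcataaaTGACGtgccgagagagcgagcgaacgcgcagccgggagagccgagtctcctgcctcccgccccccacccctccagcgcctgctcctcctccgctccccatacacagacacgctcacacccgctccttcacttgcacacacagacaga
Fos: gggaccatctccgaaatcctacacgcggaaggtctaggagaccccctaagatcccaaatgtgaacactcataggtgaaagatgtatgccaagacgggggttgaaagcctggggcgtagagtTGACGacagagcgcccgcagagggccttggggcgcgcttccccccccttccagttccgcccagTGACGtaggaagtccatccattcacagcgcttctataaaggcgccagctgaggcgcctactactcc
Npas4: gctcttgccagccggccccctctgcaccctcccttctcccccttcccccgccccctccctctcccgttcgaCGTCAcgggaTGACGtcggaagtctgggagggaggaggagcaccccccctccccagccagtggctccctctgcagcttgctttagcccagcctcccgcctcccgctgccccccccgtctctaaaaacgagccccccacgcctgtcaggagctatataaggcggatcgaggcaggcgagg

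The half-site occurs in all 4 of these windows. The 4 genes were picked from early genes and only Npas4 was lower. They therefore cannot show whether the letters separate genes higher at 48 h from genes lower at 48 h. In Areg 2 overlapping matches form the full palindromic element, which starts at -61 from the gene start. In windows that also take in the 50 bases after the start, the half-site was found on either strand in 69.7% of 33 windows of the immediate early list and 16 of 32 windows of CREB targets, against 20.8% of all 32851 windows and 29.2% of windows of measured genes. It was present in 28.7% of windows of genes higher at 48 h and 22.2% of those of genes lower at 48 h. A match is a description of letters and not evidence that a factor binds there.

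**Figure D2:**
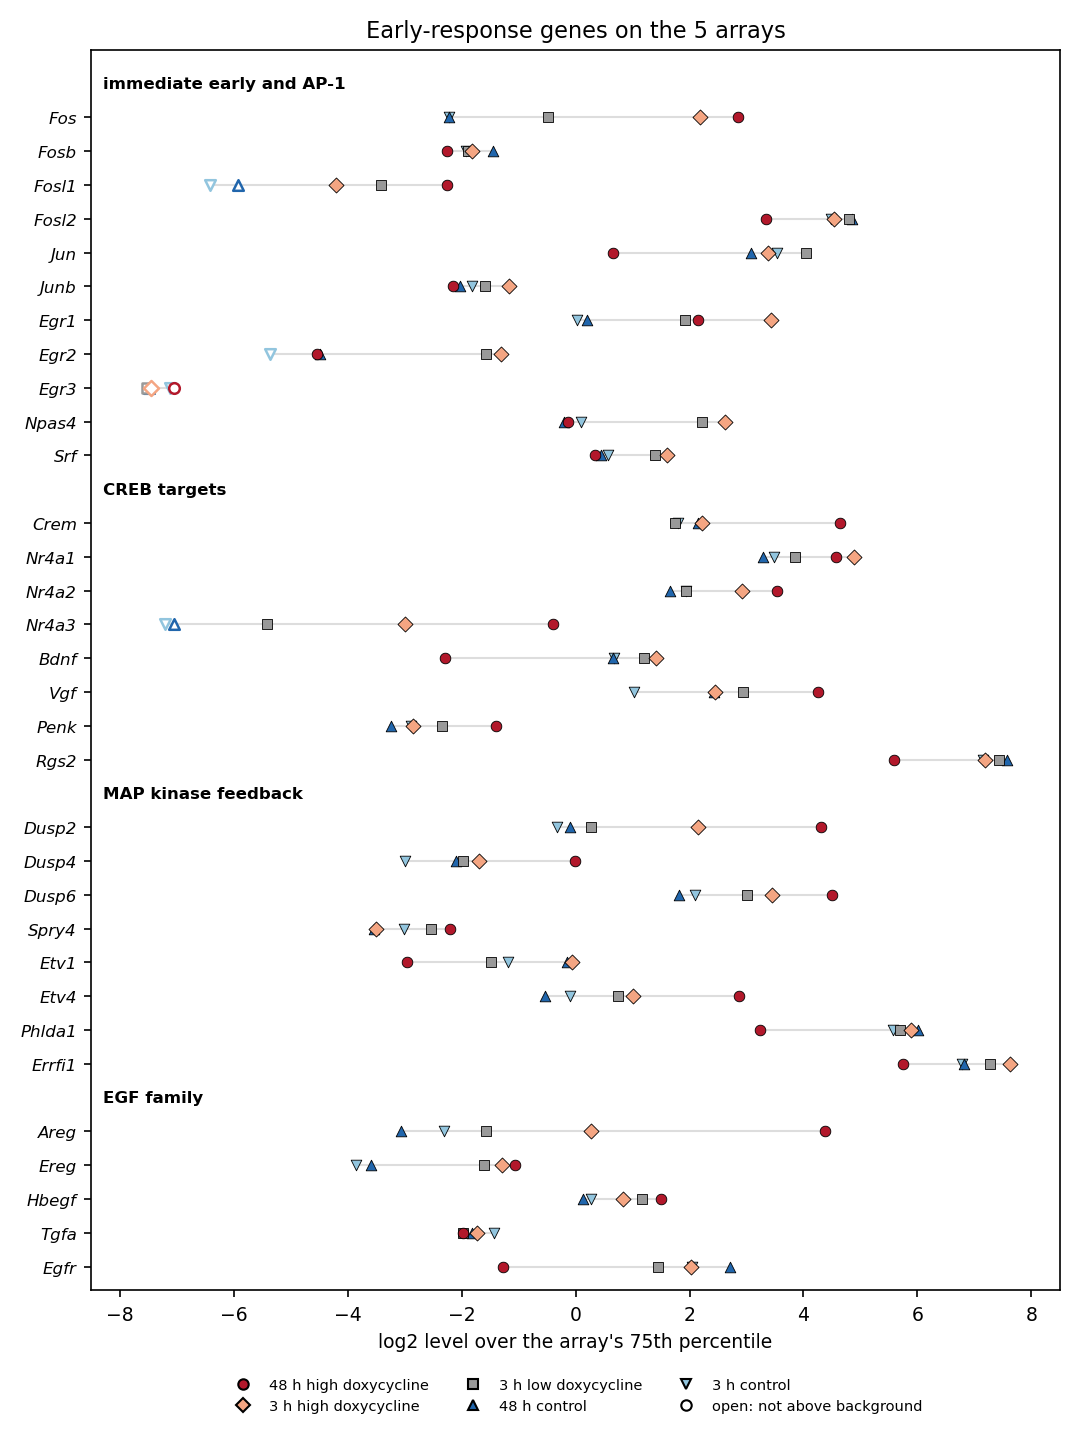
Levels (log2, horizontal axis) of early-response genes on the 5 arrays, with 48 h high doxycycline as circles, 3 h high doxycycline as diamonds, 3 h low doxycycline as squares and the 48 h and 3 h controls as triangles. Open symbols are not above background. Areg, Dusp2 and Nr4a3 are highest at 48 h of the high dose, Egr2, Npas4 and Srf lie beside the 48 h control, and Jun, Bdnf and Egfr are lowest there.

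Genes of mitosis gave the largest list difference between the 2 high-dose arrays. In this list of 29 measured genes, 28 were higher at 48 h by 2-fold or more and 0 lower, against 9.17% higher among all genes, and 11 more were higher as bounds. Their median difference was 4.41, and that between the controls was 0.08. Ccnb1, the cyclin that takes cells into mitosis, was at 2.73 at 48 h and -3.06 at 3 h of the high dose, -3.12 at the low dose, -2.36 in the 48 h control and -2.88 in the 3 h control. Birc5, which encodes the chromosome passenger protein survivin, was at 4.58 at 48 h and -1.96 at 3 h, with -1.67 at the low dose, -1.16 in the 48 h control and -1.36 in the 3 h control. It was 93.1-fold higher at 48 h, and its other probe gave 6.59 on the log2 scale against 6.54. The other arrays lay close together for both genes, and the 48 h high-dose array stood alone.

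The same order held for Ube2c, the ubiquitin-conjugating enzyme of the anaphase-promoting complex, at a difference of 6.17, and for Nuf2, of the outer kinetochore, at 5.90. Plk1, a kinase of mitotic entry, was at 3.40 at 48 h and -2.06 at 3 h of the high dose, with -1.79 at the low dose and -1.92 in the 3 h control. Its level in the 48 h control was -0.03, and it was the mitosis gene called between the controls, at a difference of 1.90. Cenpa, the centromeric histone, was the member under 2-fold, at 1.82 at 48 h and 1.31 at 3 h. It was at 1.30 at the low dose and at -1.71 and -0.87 in the 48 h and 3 h controls, so both doses at 3 h already lay above the controls. Nusap1, a spindle microtubule protein, was at least 115-fold higher at 48 h and Bub1, a spindle checkpoint kinase, at least 52.9-fold. Probes did not always agree in size, since Cdk1, the mitotic kinase, gave 4.06 on the probe used and 0.95 on another.

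All 28 called members had their 3 other arrays nearer to the 3 h high-dose level. For these genes the level at 3 h of the high dose lay among or close to those of the low dose and the controls.

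The promoters of 3 of these genes are shown with the letters known from mitotic promoters. These are the cell cycle homology region, or CHR, searched as TTTGAA or TTTAAA, and the CCAAT box, both on either strand. The windows are again 250 bases before the RefSeq gene start in GRCm38.p6, all on the minus strand, with Mki67 at chr7:135716380-135716629, Ccnb1 at chr13:100786487-100786736 and Cdk1 at chr10:69352913-69353162. Capitals mark the matches, none of which overlap each other.
Mki67: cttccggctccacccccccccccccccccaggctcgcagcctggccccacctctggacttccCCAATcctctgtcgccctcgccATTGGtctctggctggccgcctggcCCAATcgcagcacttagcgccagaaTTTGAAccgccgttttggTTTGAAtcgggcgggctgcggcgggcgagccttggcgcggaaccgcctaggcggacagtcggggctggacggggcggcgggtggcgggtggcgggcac
Ccnb1: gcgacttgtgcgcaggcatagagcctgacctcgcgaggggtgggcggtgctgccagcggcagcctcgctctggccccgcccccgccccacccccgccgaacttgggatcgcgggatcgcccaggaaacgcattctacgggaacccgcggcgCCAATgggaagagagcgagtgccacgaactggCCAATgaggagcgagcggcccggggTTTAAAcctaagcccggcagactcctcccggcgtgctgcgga
Cdk1: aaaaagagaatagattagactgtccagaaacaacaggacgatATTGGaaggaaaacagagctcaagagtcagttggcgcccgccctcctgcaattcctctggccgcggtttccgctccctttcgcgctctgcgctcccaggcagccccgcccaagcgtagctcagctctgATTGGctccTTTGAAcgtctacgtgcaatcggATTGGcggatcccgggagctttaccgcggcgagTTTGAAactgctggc

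Each of the 3 windows holds a CHR match and at least 2 CCAAT matches upstream of the start. With the 50 bases after the start included, both motifs together were found in 27 of 36 windows of the mitosis list, in 40.0% of 70 windows of genes at least 16-fold higher at 48 h, in 11.5% of windows of genes at least 2-fold higher and in 7.10% of those of genes at least 2-fold lower. They were found in 7.62% of windows of all measured genes and in 3525 of all 32851. The replication list differed in its letters, with both motifs in 18.2% of 44 windows. An E2F site was searched as GCGGGAA or GCGCGAA on either strand. It was found in 22 windows of the replication list and in 2 of 36 of the mitosis list. It was found in 1972 of all 32851 windows and in 1395 of 13957 windows of measured genes. The share was 11.8% for genes at least 2-fold higher and 7.42% for those at least 2-fold lower. These shares describe promoter letters, and no binding was measured.

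DNA replication and S phase genes were also higher at 48 h, by less. Of 41 measured members, 37 were higher and 0 lower, with a median of 1.97 and a control median of -0.03. Rrm2, the small subunit of ribonucleotide reductase, was at 5.20 at 48 h and -0.90 at 3 h of the high dose, and between -1.04 and -0.70 on the other arrays. Ccna2, the cyclin of S phase and mitosis, was at 2.27 at 48 h and -3.99 at 3 h, with -3.77 at the low dose, -3.99 in the 48 h control and -3.47 in the 3 h control, a 76.9-fold difference. The subunits of the MCM2 to MCM7 helicase, which unwinds DNA at the fork, were all higher, from 1.42 for Mcm4 to 4.13 for Mcm5. Pcna, the sliding clamp, was higher by 1.60, and Tk1, thymidine kinase, and Uhrf1, which guides DNA methylation to new strands, by 5.58 and 5.35.

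In the list of DNA repair and recombination, 13 of 27 measured genes were higher and 0 lower, with a median of 0.80. The Fanconi anaemia genes Fanca and Fanci were higher by 5.23 and 4.80, and the nuclease gene Exo1 by 5.02. Of D cyclins, CDKs and RB relatives 3 of 15 were higher. Ccnd2, a D cyclin, was at 7.36 at 48 h and 4.77 at 3 h, against 4.75 to 4.99 on the other arrays. Ccnd1, the D cyclin most often linked to growth signals, was at -4.15 at 48 h and -4.77 at 3 h of the high dose. It was at -2.41 at the low dose, -4.50 in the 48 h control and -2.34 in the 3 h control, so it did not follow Ccnd2. Cdk4, the kinase bound by D cyclins, was higher by 1.09, which became 0.80 after normexp correction and 0.82 after quantile normalisation and so lost its call.

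Inhibitors of cyclin-dependent kinases and p53 targets were mostly under the threshold. Of 28 measured, 7 were at least 2-fold lower (against 8.38% of all genes) and 1 higher, with a median of -0.39. Cdkn2b, which encodes the inhibitor p15 of CDK4 and CDK6, was at 1.46 at 48 h and 4.81 at 3 h of the high dose, 5.03 at the low dose, 5.46 in the 48 h control and 5.18 in the 3 h control. Its 2 probes gave -3.35 and -3.33. Cdkn2a, the neighbouring locus for p16 and p19ARF, was at 2.67 at 48 h and 4.51 at 3 h, and between 4.42 and 4.70 on the other arrays. For both genes the 48 h high-dose array was below every other. Cdkn1a, encoding p21, was lower by a value of -1.33 on its 10-spot probe and of -0.40 on another. The p53 target genes Fas, a death receptor, and Trp53inp1 were at -2.29 and -2.06. Cdkn2d, encoding p19INK4d, was the higher member, at 1.41.

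Genes linked to FOXO factors and to quiescence had one of the lowest list medians. Of 16 measured, 10 were lower (against 8.38% of all genes) and 0 higher, with a median of -1.27 and a control median of 0.24. Txnip, a thioredoxin-binding protein that limits glucose uptake, was at -2.50 at 48 h and 0.84 at 3 h of the high dose, against 1.77 at the low dose, 2.12 in the 48 h control and 2.33 in the 3 h control. Its other probe gave -1.73 in place of -3.34. Ddit4l, an inhibitor of mTOR signalling, was lower by a value of -2.66, Gas6, a secreted ligand of the kinase Axl, by -2.48, and Bcl6, a repressor, by -1.89. For Txnip and Ddit4l the 3 h high-dose level already lay below both controls.

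**Figure D3:**
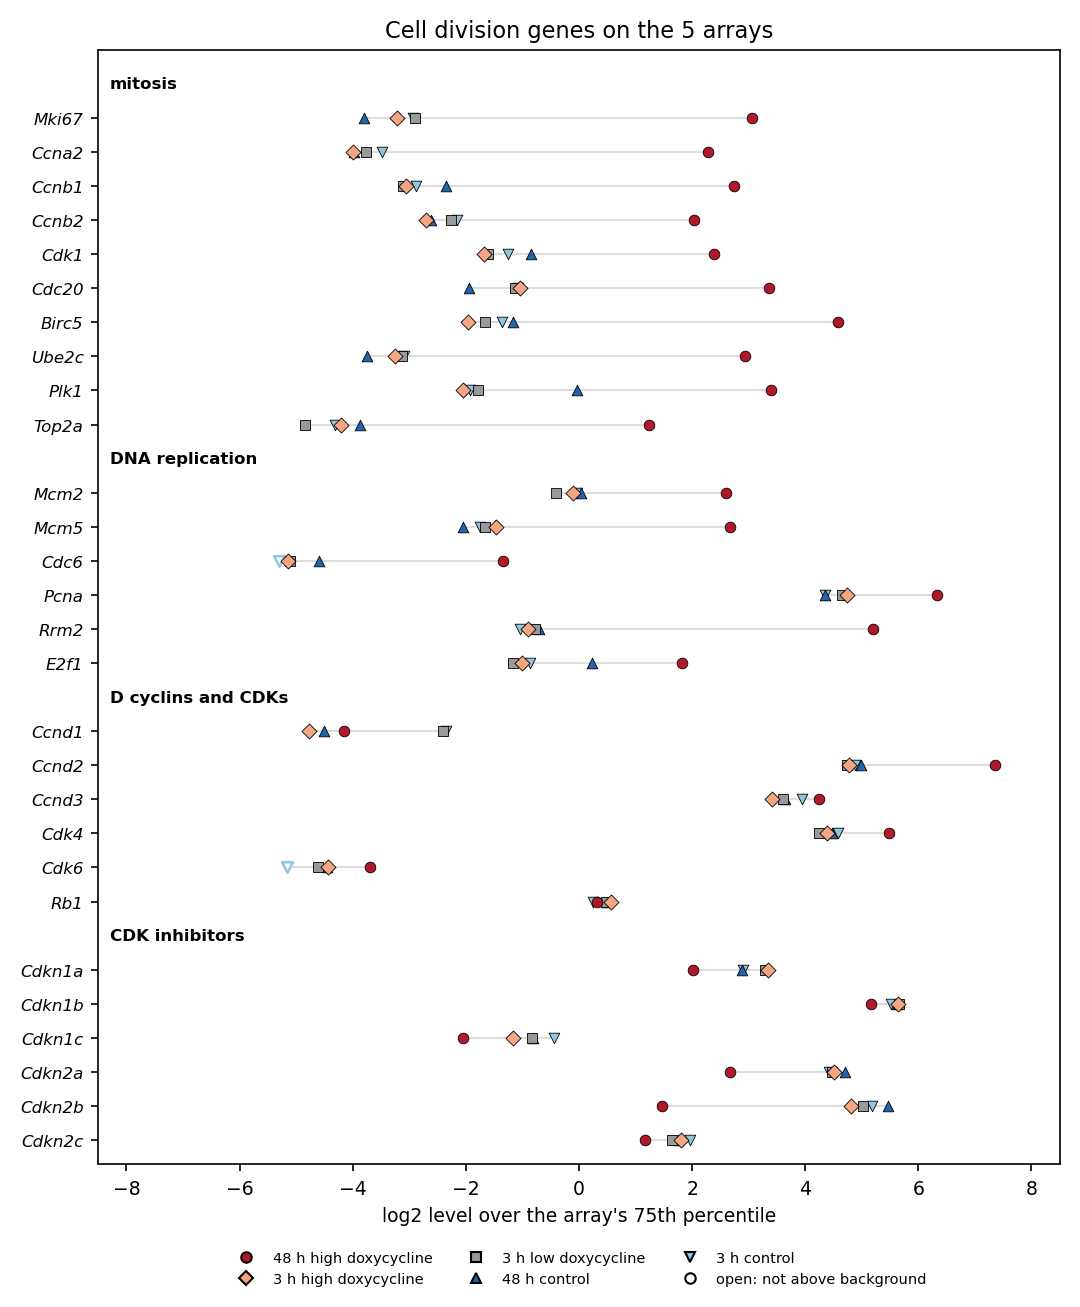
Levels (log2, horizontal axis) of cell division genes on the 5 arrays, with symbols for the arrays as given in the key and open symbols for values not above background. At 48 h of the high dose the mitosis and replication genes stand alone on the right and Cdkn2a and Cdkn2b on the left, while the other 4 arrays lie together for most genes.

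Many genes of the extracellular matrix were lower at 48 h than at 3 h. Of 25 collagens and collagen enzymes, 11 were lower (against 8.38% of all genes) and 1 higher, with a median of -0.80 against -0.13 between the controls. Col6a1, a chain of microfibrillar collagen, was at 1.98 at 48 h and 5.15 at 3 h of the high dose, 4.91 at the low dose, 5.34 in the 48 h control and 5.11 in the 3 h control. Its partner chain Col6a2 was lower by a value of -2.41 and the fibrillar collagen genes Col5a3, Col5a2 and Col3a1 by -2.03, -2.0 and -1.88. Col1a1 and Col1a2, the chains of the most abundant collagen of connective tissue, differed by under 2-fold. Col1a1 was at -1.21 at 48 h and -0.38 at 3 h. Loxl3, a collagen crosslinking enzyme, was the higher member at 2.0.

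Of 30 measured matrix glycoproteins and proteoglycans, 14 were lower and 1 higher, with a median of -0.76, and 4 more were lower as bounds. Thbs1, thrombospondin 1, was at -3.42 at 48 h and 1.03 at 3 h of the high dose, 2.68 at the low dose, 0.74 in the 48 h control and 0.79 in the 3 h control. It was 22-fold lower at 48 h. Postn, periostin, was at -3.98 at 48 h and -0.30 at 3 h, against -1.16 at the low dose, 1.60 in the 48 h control and -1.18 in the 3 h control. Its levels in the 2 controls differed by 2.78, so its 3 h high-dose level lay between them. Lamc1, a laminin chain of basement membranes, and the small proteoglycan genes Lum and Ogn were lower by values of -2.78, -2.74 and -2.71. Mfap5, of elastic microfibrils, was higher by 1.96, but at -1.23 it lay below its level at the low dose, -0.84. Of 19 matrix proteases and inhibitors, 4 were lower, among them Mmp11 and Mmp2 at -2.68 and -1.89, and 2 were higher.

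Contractile genes and targets of SRF, the factor that drives them with its partner myocardin, were lower in 8 of 17 measured cases and higher in 0, with a median of -0.93. Myl9, a myosin light chain, was at -0.95 at 48 h and 2.71 at 3 h of the high dose, 3.85 at the low dose, 2.57 in the 48 h control and 3.14 in the 3 h control. Vcl, vinculin of focal adhesions, was at -0.45 at 48 h and 2.79 at 3 h, against 2.69 at the low dose, 1.59 in the 48 h control and 1.45 in the 3 h control. Acta2, the smooth muscle actin, behaved otherwise, at -2.43 at 48 h and -0.47 at 3 h, with 1.21 at the low dose, -2.19 in the 48 h control and 0.34 in the 3 h control. Between the controls it was lower at 48 h by a value of -2.52, a larger difference than the -1.96 of the high dose, and Tagln and Cnn1 had the same order, though Cnn1 was below background in the 48 h control. For these 3 genes the difference of the high-dose pair is therefore no larger than that of the controls.

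The TGF-beta and BMP list and the YAP and CCN list held lower calls and no higher ones. Of 26 measured TGF-beta and BMP genes, 13 were lower (against 8.38% of all genes) and 0 higher, with a median of -0.98. Grem1, a secreted BMP antagonist, was at -3.56 at 48 h and 0.77 at 3 h of the high dose, and between 1.22 and 1.37 on the other arrays. Tgfb3, a ligand, was lower by a value of -2.98 and its relative Tgfb2 by -2.12. Id1, Id2 and Id3, inhibitors of differentiation that BMP signals induce, were lower by -1.11, -1.69 and -1.52. Among 15 measured YAP and CCN genes, 9 were lower and 0 higher, with a median of -1.25. Ccn3, a matricellular protein, was at -2.71 at 48 h and 0.65 at 3 h, and Axl, a receptor kinase, at -0.71 and 1.59. The coactivators Yap1 and Wwtr1 and their DNA-binding partner Tead1 were themselves lower, by -1.77, -1.21 and -1.46. Ccn1, an early gene of the family, was at 1.35 at 48 h and 3.02 at 3 h, both above its levels of 0.04 and 0.67 in the 48 h and 3 h controls. The letters GGAATG of the TEAD site, on either strand, were found in 9 of 12 windows of this list. They were found in 14.7% of all windows and 12.4% of windows of measured genes. The share was 14.3% for all genes lower at 48 h and 12.8% for all genes higher at 48 h.

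Growth factor receptors were lower in 9 of 21 measured cases and higher in 3, with a median of -0.95. Pdgfrb and Pdgfra, the PDGF receptors of mesenchymal cells, were lower by values of -2.06 and -1.94. Ngfr, which encodes the p75 neurotrophin receptor and marks neural crest cells, is counted in the neural crest list and not in this one. Ngfr was at -2.20 at 48 h and 4.01 at 3 h, with 4.0 at the low dose, 4.25 in the 48 h control and 4.35 in the 3 h control. It was 74.1-fold lower at 48 h, and its 10 spots had an SD of 0.221 on the 48 h and 0.0643 on the 3 h array. Epha2, an ephrin receptor, was higher by 1.97.

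Genes that mark cell lineages moved with Ngfr only in part. Of 20 measured neural crest genes, 5 were lower and 0 higher, with a median of -0.49, and Ngfr was itself the lowest of the 5. Prrx2, a homeobox gene of mesenchyme, was at 0.87 at 48 h and 4.66 at 3 h of the high dose, and between 4.49 and 4.64 on the other arrays. Msx2 and Twist1, factors of crest-derived mesenchyme, were lower by values of -2.34 and -2.32, and Snai2 by -1.59. Sox10, the factor of the crest and of its glial and melanocyte derivatives, was at -2.28 at 48 h and -2.33 at 3 h, and Sox9 at 2.75 and 2.46. These last differences were 0.05 and 0.29.

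In the melanocyte list, 8 of 16 genes on the array were measured, with 1 higher, 1 lower and a median of 0.08. Mitf, the master regulator of melanocytes and a marker of clear cell sarcoma, was at 2.97 at 48 h and 2.53 at 3 h, a difference of 0.44 with 1.05 on another probe. The pigment enzyme genes Tyrp1 and Dct were below background on all 5 arrays. Schwann cell and glial genes had 2 of 9 lower, among them Egr2, and neuronal genes 3 of 16 higher and 2 lower. Of 7 neural crest markers, 6 were above background at 48 h and 7 at 3 h of the high dose. All 8 fibroblast markers were above background on every array, and their summed signal, relative to the 75th percentile, was 1.49 at 48 h and 5.10 at 3 h of the high dose, against 8.12 to 11.1 elsewhere. The labels call the cells tumour cells. Fewer cells of a type and less RNA per cell cannot be told apart in such bulk samples.

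**Figure D4:**
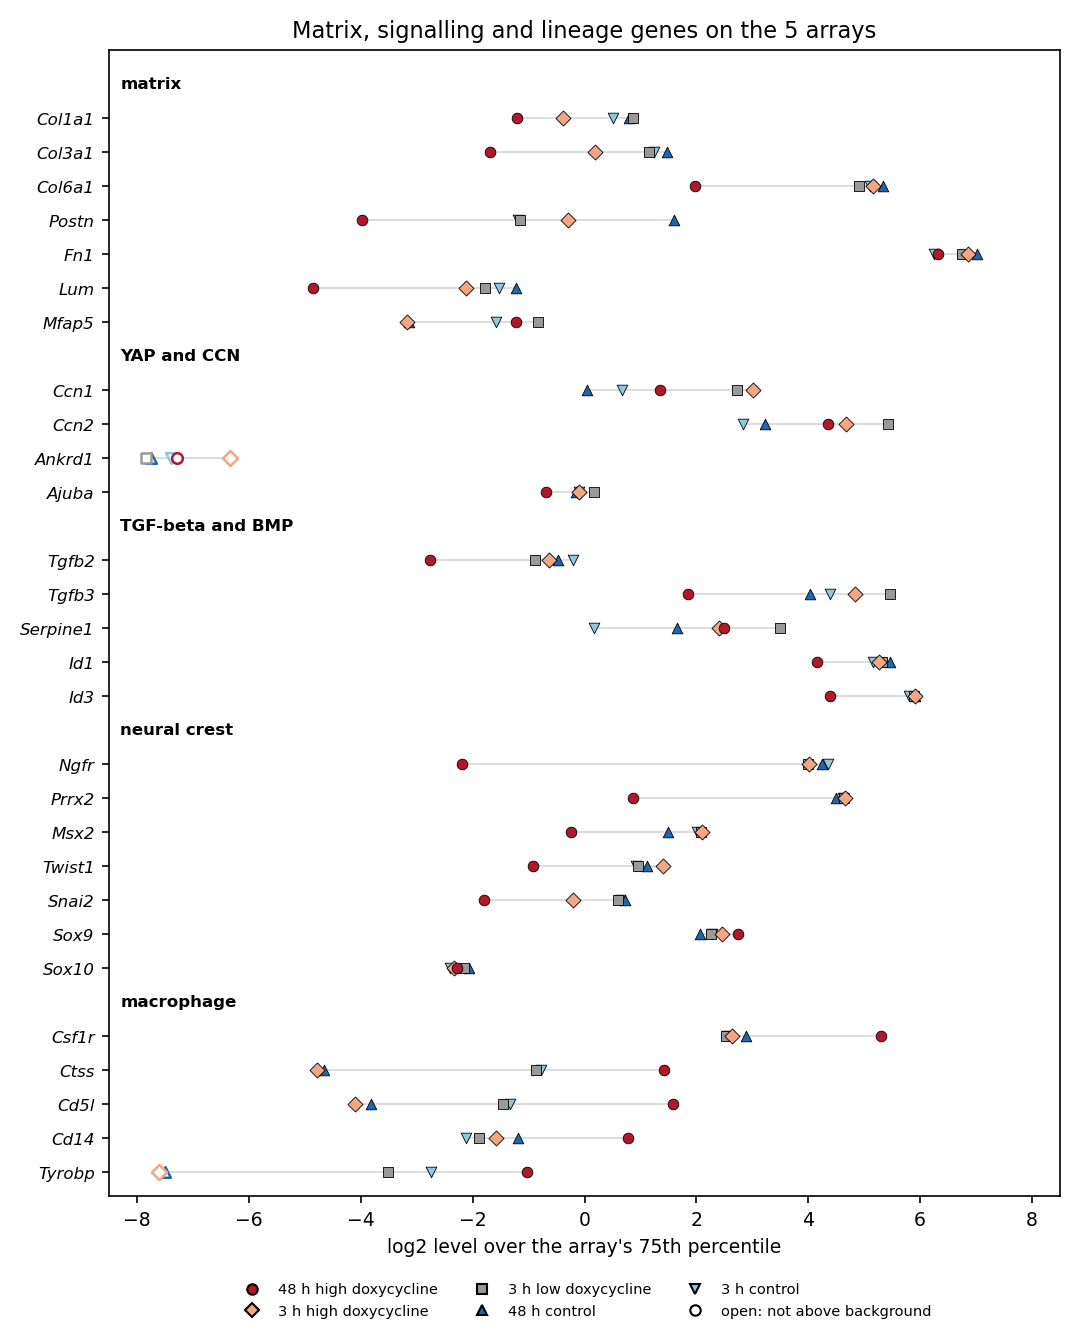
Levels (log2, horizontal axis) of matrix, YAP, TGF-beta, neural crest and macrophage genes on the 5 arrays, with array symbols as in the key and open symbols for values not above background. Most matrix and crest genes are lowest at 48 h of the high dose, Sox9 and Sox10 differ little between arrays, and the macrophage genes are highest at 48 h of the high dose.

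Macrophage and leukocyte genes were higher at 48 h of the high dose, with 8 of 10 measured members higher, 0 lower and 6 more higher as bounds. The list median was 1.67, and it was -0.10 between the controls. Csf1r, the receptor for macrophage colony-stimulating factor, was at 5.30 at 48 h and 2.65 at 3 h, against 2.52 at the low dose, 2.89 in the 48 h control and 2.55 in the 3 h control. Its 3 probes gave differences from 0.44 to 3.64. Ctss, cathepsin S, which trims antigens for presentation, was at 1.43 at 48 h and -4.79 at 3 h of the high dose, -0.87 at the low dose, -4.67 in the 48 h control and -0.78 in the 3 h control. Cd5l, a secreted macrophage protein, followed the same order, at 1.58, -4.10, -1.46, -3.82 and -1.33 over those arrays. The 3 h high-dose and 48 h control arrays were thus the low ones for both genes, which differed between the controls by values of -3.89 and -2.50.

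The defining markers followed that split in part. Tyrobp, an adaptor of myeloid receptors, Lyz2, lysozyme, and C1qc, of complement, were above background at 48 h of the high dose, at the low dose and in the 3 h control, and below it at 3 h of the high dose and in the 48 h control. Csf1r and Adgre1, a macrophage surface receptor, did not follow it. Below 48 h of the high dose, where Adgre1 was at -3.78, both were highest in the 48 h control, with Adgre1 at -4.38 there, -4.90 at 3 h of the high dose, -4.77 at the low dose and -4.64 in the 3 h control. C1qa, of complement, was above background at 48 h of the high dose and on no other array. Of 11 macrophage markers on the array, 10 were above background at 48 h and 6 at 3 h of the high dose, 10 at the low dose, 6 in the 48 h control and 9 in the 3 h control. Their summed signal, relative to the 75th percentile, was 48.4 at 48 h and 7.23 at 3 h of the high dose, and from 8.56 to 9.19 on the other arrays, with Csf1r making up most of it on each array. Ptprc, the general leukocyte marker, was below background on both high-dose arrays. The part of other cells in these values was not tested.

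Interferon-induced and MHC class I genes were 6 of 28 higher and 2 lower. Tap1 and Psmb9, of antigen processing, were higher by 1.53 and 1.36 and Igtp, an interferon-induced GTPase, by 1.36. Ifit3, an interferon-induced antiviral gene, went the other way, at -4.77 at 48 h and 0.33 at 3 h of the high dose, 0.91 at the low dose, 2.44 in the 48 h control and 1.96 in the 3 h control. Of 16 measured cytokine genes, 3 were higher and 2 lower. Il11, a cytokine of the IL-6 family, was at 2.64 at 48 h and -1.24 at 3 h, against -0.87 at the low dose, -1.14 in the 48 h control and -1.81 in the 3 h control. Tnfaip3, an inhibitor of NF-kB, was higher by 1.67.

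Of 27 measured genes of cholesterol and fatty acid synthesis, 12 were higher (against 9.17% of all genes) and 0 lower, with a median of 0.89. Pmvk, phosphomevalonate kinase, was at 7.45 at 48 h and 4.42 at 3 h of the high dose, and between 4.33 and 4.36 on the other arrays.

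Polycomb, DNA methylation and chromatin genes were higher in 10 of 22 cases and lower in 1. Asf1b, a histone chaperone, and Hells, a chromatin remodeller, were higher by 4.40 and 2.79, Ezh2, the methyltransferase of polycomb complex PRC2, by 1.51, and Dnmt3a, a DNA methyltransferase, was lower by a value of -1.38. Genes of serine synthesis and the ATF4 response were higher in 4 of 23 cases, namely Chac1, Psat1, Mthfd2 and Trib3, at 2.43, 2.41, 2.34 and 2.14. Of 23 glycolysis and hypoxia genes, Slc16a3, a lactate exporter, was higher by 2.82 and 4 were lower. Of 28 ribosome biogenesis genes, 3 were higher, a share near the 9.17% of all genes, with a median of 0.40.

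Antioxidant and glutathione genes were 7 of 22 higher and 2 lower, but 12 of 22 were higher between the controls. Nqo1, a quinone reductase under NRF2, was at 3.45 at 48 h and 0.79 at 3 h of the high dose, 0.75 at the low dose, 3.83 in the 48 h control and 0.85 in the 3 h control. Both 48 h arrays were thus high and all 3 h arrays low for Nqo1. The list median was 0.40 for the high dose and 1.40 for the controls. None of 25 respiratory chain genes and none of 15 reference genes was called in either direction. Their medians were 0.28 and 0.19, and after quantile normalisation of the processed signal these turned to -0.18 and -0.03, so no direction is given for them.

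Wnt pathway genes had 8 of 18 lower (against 8.38% of all genes), with Nkd1, a feedback inhibitor, and Sfrp1, a secreted antagonist, at -3.71 and -2.47, and 2 higher, Wnt2 at 2.21 and Dkk1 at 1.85. Wnt2 was at 0.90 after normexp correction and lost its call. IGF and imprinted growth genes had 3 of 14 higher, among them the maternally expressed RNA Meg3 and the paternally expressed Dlk1 of the same locus at 1.38 and 1.42, and 3 lower, among them Igf2r at -1.88. Igfbp5, an IGF-binding protein, was at least 128-fold lower at 48 h. In the list of survival and death genes, Bmf, a BH3-only death protein, was at -3.81 at 48 h and 0.60 at 3 h, and 17 of 20 members were not called. The integrin (2 higher and 2 lower of 15), clock (1 and 2 of 16), adipocyte (0 and 2 of 9), skeletal muscle (1 and 2 of 4) and epithelial (0 and 2 of 6) lists had calls on few genes, and 0 of 3 endothelial genes was called.

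**Figure D5:**
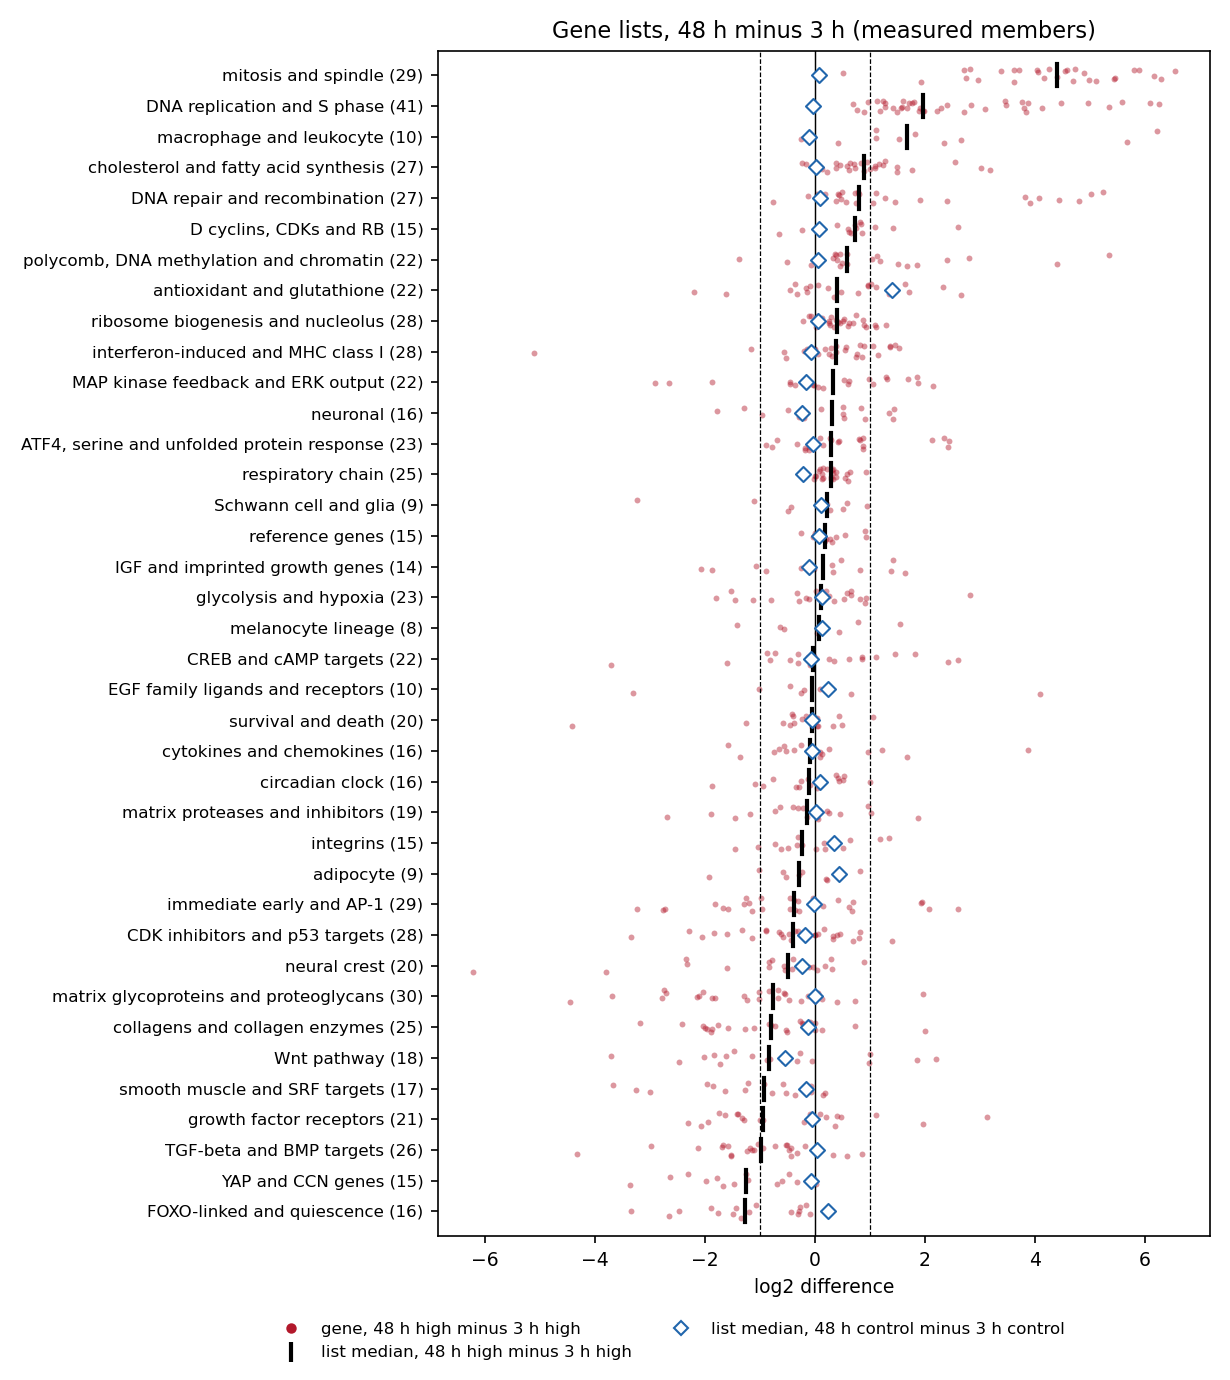
Log2 differences of the measured members of each list with 8 or more of them, 48 h minus 3 h at the high dose (points), with the list median (black bar) and the median of the same list for the 48 h minus the 3 h control (open diamond). Dashed lines mark 2-fold, and the number of measured members stands after each list name. The mitosis list has a median of 4.41 and the FOXO list of -1.27, while the control medians run between -0.55 for the Wnt list and 1.40 for the antioxidant list.

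Outside the lists, the largest positive differences included genes of drug metabolism and transport. Cyp3a44, a cytochrome P450 gene of the liver, was at 3.36 at 48 h and -4.56 at 3 h of the high dose, and below background on the other 3 arrays. Its difference of 7.92 was the largest of all measured genes, and that of its relative Cyp3a11 was 6.35. Of 8 Cyp3a genes on the array, counted after those values were seen, 7 were above background at 48 h, 3 at 3 h and 1 on each other array. Cyp3a13, the member above background on all 5 arrays, went the other way, at -4.20 at 48 h and -3.22 at 3 h of the high dose. Its difference was -0.98. Several of the family's members are near-identical copies, so which of them the probes detect is uncertain. Of 5 liver genes checked, Alb, Apoa1 and Fgb were below background on all 5 arrays. Serpina1a was above background on all 5, at -3.43 at 48 h and -4.12 at 3 h of the high dose. It was at -4.42 at the low dose, -4.53 in the 48 h control and -4.38 in the 3 h control. Ttr was at -3.98 at 48 h, -4.77 at 3 h and -5.17 at the low dose, and below background in both controls. Dnase1l3, a secreted nuclease known from macrophages and dendritic cells, was at 5.70 at 48 h and -1.34 at 3 h, and between -1.52 and -1.23 elsewhere. Slco2b1, an organic anion transporter, was higher by 6.43 with 6.89 on its other probe. Pimreg, a regulator of mitosis, was higher by 7.11 and Pbk, a mitotic kinase, at least 249-fold.

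The most negative differences were those of Rab3b, a GTPase of regulated secretion, and Ngfr. Rab3b was at -2.94 at 48 h and 3.68 at 3 h of the high dose, and between 3.19 and 3.28 on the other arrays, a 98.4-fold difference. Vill, a relative of villin, Lrrc4, a synaptic adhesion protein, and Tmeff2, a transmembrane protein, were lower by values of -5.83, -5.13 and -5.08. Aqp8, a water channel, Ggt5, a gamma-glutamyl enzyme, and Cbr2, a carbonyl reductase, were at -5.06, -5.05 and -4.85. For these genes the other 4 arrays lay far nearer to each other than to 48 h of the high dose. The widest span among them was that of Ggt5, from 0.62 to 1.86, which is itself over 2-fold. Inmt, a methyltransferase, was at -2.80 at 48 h and 2.46 at 3 h, while the controls held 3.35 and 1.55 at 48 h and 3 h, so it differed between them by 1.80. Grin1, a glutamate receptor subunit, was at least 63.8-fold lower at 48 h, but at 3 h of the high dose it was the one array above background, at 0.72.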

How the data were processed

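RNA from 5 cell samples was hybridised to 1-colour arrays, 1 array for each group. The deposited files hold the authors' scanner output. The processed signal is a linear intensity that, per the file headers, was corrected for background within each array and not normalised between arrays. Agilent Feature Extraction 10.7.3.1 is named by the submitters' processing notes. The deposited value table holds linear intensity too, within 0.001 log2 of the processed signal for 99.3% of probes, with column medians between 23.9 and 38.3.

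Control spots and outlier spots (111 to 146 an array) were left out, repeated spots were averaged, and levels are log2 signal minus the 75th percentile of log2 signal of the same array. No spot was saturated. Names came from curated RefSeq accessions, of which 26403 of 27016 probes matched, and 29268 probes stayed unnamed. The probe with the highest mean level stands for a gene. Of 538 called genes with several measured probes, 34 had probes that differ in sign. Where a gene was above background on 1 of the 2 arrays, its bright level was set against the higher of the dim array's lowest well-measured level and the gene's own, which gives an "at least" fold. A call needed 2-fold, and 1 array a group allows no test. The rule for named genes took the 3 markers, Ewsr1 and Atf1, up to 4 called members with the largest differences of each of 42 lists and up to 2 of the other direction, defining markers, the 10 highest and 10 lowest genes and the 5 largest bounds each way. Genes beyond it were chosen after their values were seen. The members, lists and rules were chosen with earlier results of these data known.

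Alternatives were centring on the median, the deposited value table, quantile normalisation, normexp with quantile normalisation, no background filter, a filter on all 5 arrays, the mean of a gene's probes and a 4-fold threshold. The planned normexp on mean signals was replaced by median signals, a choice made after seeing the data. The steps were tested on simulated data. Promoter windows came from RefSeq annotation of GRCm38.p6, and the arrays' own coordinates were not used here. Some results are not reported here. Software was Python 3.11.15, numpy 2.4.6, pandas 2.3.3, matplotlib 3.10.9, R 4.3.3 and limma 3.58.1.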

Additional observations from a re-analysis of the deposited data

Results flagged for a closer look

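Over all genes, 69 of the 1154 called lower at 48 h of the high dose (5.98%) were called higher between the controls. Of the 1263 called higher, 48 (3.80%) were called lower between the controls. The same direction in both pairs was called for 72 higher and 32 lower genes. For the 11 genes named here the 48 h minus 3 h difference went past 2-fold in one direction at high doxycycline and past 2-fold in the other direction between the controls. With 1 array a group, the difference between these differences was not tested. Lower at 48 h of the high dose and higher in the 48 h control were Etv1, an ETS factor (-2.91 at the high dose and 1.03 in the controls, log2), Postn, periostin (-3.69 and 2.78), F3, tissue factor (-1.98 and 1.48), and Cebpa, a factor of fat and liver cells (-1.93 and 1.59). The same order held for Adm, a vasodilator peptide (-1.53 and 1.02), Mgst1, a glutathione transferase (-1.61 and 1.76), and Inmt, a methyltransferase (-5.26 and 1.80).

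Higher at 48 h of the high dose and lower in the 48 h control were the macrophage genes Ctss (6.22 at the high dose and -3.89 in the controls) and Cd5l (5.68 and -2.50), with Mfap5 (1.96 and -1.56) and Dlk1 (1.42 and -1.58). For Ctss and Cd5l the 3 h high-dose and 48 h control arrays were the low ones, as they were for the macrophage markers Tyrobp, Lyz2 and C1qc.

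Probes without a gene name, which the comparisons above do not use, also differed between 48 h and 3 h of high doxycycline. Of 11752 above background on both arrays, 12.7% passed 2-fold, with 877 higher and 611 lower, against 3.24% between the controls.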

How the results depend on the processing

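Each group is 1 array, so no value here carries culture-to-culture error, and signal over background limits the dim genes. No paired analysis was possible because each group has 1 array. No result changed sign past the threshold. Some list medians under it did change sign. In the main setting these were -0.79 for muscle, 0.12 for glycolysis, 0.22 for Schwann cell, -0.08 for cytokine and -0.24 for integrin genes. Others were 0.28 for respiratory, 0.19 for reference, -0.05 for EGF family and 0.09 for epithelial genes. With no background filter the EGF family median became 0.15 and the epithelial median -0.09. Of 160 single genes followed through the settings, 22 crossed the 2-fold line under normexp with quantile normalisation, where the largest move was 2.33. Under quantile normalisation alone 4 crossed it. At 4-fold, 370 genes were higher and 305 lower at 48 h of high doxycycline. Without a background filter the counts were 2035 and 1973, with 867 and 494 between the controls and 2389 and 2538 for the high-dose minus the control difference. List medians then became 4.64 for mitosis, 1.08 for repair, -1.01 for matrix glycoproteins, 0.45 for Schwann cell, 0.28 for muscle, 2.41 for macrophage and 0.19 for cytokine genes. Quantile normalisation gave 1154 higher and 1253 lower genes, which turns the balance of 1263 and 1154. Normexp with quantile normalisation also turned it, at 802 and 924, with 165 and 105 between the controls, and medians of 3.68 for mitosis, 1.69 for replication, 0.45 for D cyclins, -0.97 for matrix glycoproteins, -0.0079 for Schwann cell, 0.0369 for neuronal, -0.33 for muscle, 1.26 for macrophage, -0.54 for Wnt, -0.16 for respiratory, -0.20 for glycolysis, 0.16 for antioxidant and -0.0171 for reference genes. Quantile normalisation alone gave medians of -1.02 for matrix glycoproteins, -0.0346 for Schwann cell, 0.0799 for neuronal, -0.39 for cytokine, -0.18 for respiratory, -0.15 for glycolysis and -0.0347 for reference genes. The filter on all arrays gave 0.34 for muscle genes, and the mean of probes -1.2498 for FOXO against -1.2525 for YAP genes, which turns their order, -0.76 for TGF-beta genes and 0.0222 for integrins. The median of all genes was 0.0754, and -0.0122 and -0.0159 after the normalisations with and without normexp. The cause was not tested. The planned normexp on mean signals was not run.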

Other observations

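Gene families outside the lists were counted after their values were seen. Histone genes were higher at 48 h of high doxycycline in 17 of 39 measured cases (against 9.17% of all genes) and lower in 0, with a median difference of 0.71. H1f5, a linker histone, was at 1.42 at 48 h and -3.36 at 3 h of the high dose, and between -3.65 and -3.46 on the other arrays. H2ac4, a core histone, was at 5.79 at 48 h and 1.05 at 3 h. Histone copies are nearly identical, so which of them a probe detects is uncertain. Of 25 measured kinetochore and division cycle genes that no list holds, 19 were higher and 0 lower, with a median of 2.07. Cdca3, which helps trigger mitotic entry, was at 3.65 at 48 h and -1.98 at 3 h, and Spc24, of the outer kinetochore, at 0.34 and -4.37.

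Axon guidance genes of the semaphorin, slit and robo families were lower in 6 of 11 measured cases (against 8.38% of all genes) and higher in 0, with a median of -1.98. Sema3c, a secreted semaphorin, was at 0.06 at 48 h and 4.43 at 3 h of the high dose, and between 4.14 and 4.86 on the other arrays. Slit2, a guidance ligand, was at -3.26 at 48 h and 0.14 at 3 h, and Robo1, its receptor, at -3.65 and -0.36. Olfactory receptor genes made up 7 of the 473 genes at least 4-fold above every other array at 48 h of the high dose, and 16 of the 55 such genes at 3 h, while 1057 of all 20018 named genes were olfactory receptor genes.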
